A study of Mus musculus with 4 samples.

Results

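Toll-like receptors are innate sensors of microbial lipids, proteins and nucleic acids, and the 10 genes described here encode 8 of them (Tlr1, Tlr2, Tlr3, Tlr4, Tlr6, Tlr7, Tlr9 and Tlr13), the related surface protein CD180 and the adaptor MYD88. They were taken by gene symbol from the 16613 symbols in the count files of 4 RNA-seq libraries. The RNA came from GFP+ bone marrow cells, termed N-myc-induced B-ALL cells (B-cell acute lymphoblastic leukaemia) in the labels. These cells had grown in recipient mice after transfer of B220+ bone marrow cells carrying introduced N-myc. In 2 libraries the donor cells were Anp32b-/- (KO), and in the other 2 they were Anp32b+/+ (WT). N-myc, the C57BL/6 strain and the bone marrow source are shared by both genotypes, so both are leukaemias and neither is a normal B cell. The sources used here do not give the animals' age, how many animals a library holds or which leukaemia clones they carried. The p-values therefore measure only the spread between these libraries, which may be technical.

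The receptors fall into those at the cell surface and those of the endosome. TLR2 pairs with TLR1 or TLR6 to sense bacterial lipoproteins, and TLR4 with its partner MD-2 senses lipopolysaccharide. TLR3, TLR7, TLR9 and TLR13 sense nucleic acids inside endosomes, where the chaperone UNC93B1 delivers them. CD180 resembles the outer part of TLR4 but lacks the signalling TIR domain. It is held at the surface of B cells by its partner MD-1. MYD88 couples all of these Toll-like receptors except TLR3 to the IRAK kinases and NF-kB. In B cells TLR7, TLR9 and CD180 are best known for driving activation and proliferation.

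B lineage markers had many reads in every library, as the label states, and each list of markers of other cells had a lower summed level. Anp32b itself was at 74.4 and 70.6 CPM in the KO libraries, against 774 and 853 CPM in the WT libraries, where CPM is the read count scaled to a common library size with TMM factors. The 15 B lineage markers summed to 7124 and 7188 CPM in KO and to 7662 and 7607 CPM in WT, with Cd79a and Cd24a among those with the most reads (3 called higher and 7 lower). Library totals were 19581575 and 19605800 estimated reads for KO, and 19692505 and 19758671 for WT. A count of 0 allows up to 3 reads, or 0.151 to 0.155 CPM, as a limit of counting alone. The KO pair differed less between themselves than the WT pair did (chi-square per degree of freedom 2.12 and 5.51), and both pairs differed less than libraries of different genotype (19.4 to 20.8).

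The promoters were read first, because the series title names PU.1, a factor of B cells and myeloid cells that binds GGAA-containing DNA. RefSeq (GRCm38.p6) start sites were listed for 8 of the 10 genes, and the 250 bases before each start were searched on both strands. GAGGAA, 1 longer form that holds GGAA, stood before Tlr1, Tlr9 and Tlr13, 3 of the 8, and before 23.3% of 32851 RefSeq starts. GGAA alone was not searched for. An NF-kB form, GGGA and CC with any 4 bases between them, stood before Tlr2 and Tlr3, against 17.6% of all starts. The interferon response element, GAAA written again after a gap of 2 bases, was found before Myd88 and Tlr6 (2.98% of all starts), and the E-box CACGTG before Tlr1 (6.02%). A member counts here if any of its listed starts has the motif, whereas the shares count each start by itself. Cd180, Tlr1 and Tlr6 have more than 1 listed start, so their counts and the shares are not like for like. These are matches of letters and say nothing about binding in these cells.

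The upstream windows of Cd180 and Tlr9, which rose in KO, and of Tlr2, which fell, are shown for comparison, 5′ to 3′ on the strand of the gene, with matches to GAGGAA or to the NF-kB form in capitals. The Cd180 window (chr13:102693297-102693546, plus strand) holds neither motif. The Tlr9 window (chr9:106222348-106222597, plus strand) holds GAGGAA from 112 to 107 bases before the start. The Tlr2 window (chr3:83841609-83841858, minus strand) holds the NF-kB form, readable on both strands. The shorter GGAA can be read in each of these windows, that of Cd180 included.
Cd180: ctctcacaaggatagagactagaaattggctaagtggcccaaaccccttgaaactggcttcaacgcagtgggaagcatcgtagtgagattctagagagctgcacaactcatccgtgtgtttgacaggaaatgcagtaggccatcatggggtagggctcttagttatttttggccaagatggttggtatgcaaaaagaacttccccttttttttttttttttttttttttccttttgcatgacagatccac
Tlr9: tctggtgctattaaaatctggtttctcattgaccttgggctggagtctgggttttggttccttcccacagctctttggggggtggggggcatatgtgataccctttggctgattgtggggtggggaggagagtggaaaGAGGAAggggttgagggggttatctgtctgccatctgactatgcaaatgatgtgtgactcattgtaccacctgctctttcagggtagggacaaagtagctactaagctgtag
Tlr2: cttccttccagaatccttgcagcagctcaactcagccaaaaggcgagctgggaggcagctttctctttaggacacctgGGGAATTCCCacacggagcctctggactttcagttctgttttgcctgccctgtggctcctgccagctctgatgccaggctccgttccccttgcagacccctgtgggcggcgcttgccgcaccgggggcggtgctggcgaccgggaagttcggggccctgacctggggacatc

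Cd180 and Tlr9 rose in the KO libraries, whereas Tlr2 and Tlr7 fell. The remaining 5 tested genes, Myd88 among them, were not called. Of the 9 members that passed the filter on low counts, 2 were called higher and 2 lower at an edgeR adjusted p under 0.05. Over all 12123 tested genes, 10.9% were called higher and 12.6% lower, 23.6% in all. The KO and WT libraries did not overlap for 6 of the 9 tested members, and for 60.5% of all tested genes. Tlr13, among the 6, passed the filter only through its WT libraries. The median log2 fold change was 0.04 for the tested members and 0.0021 for all tested genes. In each compartment 1 receptor rose and 1 fell: at the surface Cd180 rose and Tlr2 fell, and in the endosome Tlr9 rose and Tlr7 fell. In bulk RNA, fewer cells of a type and less RNA per cell cannot be told apart.

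**Figure D1:**
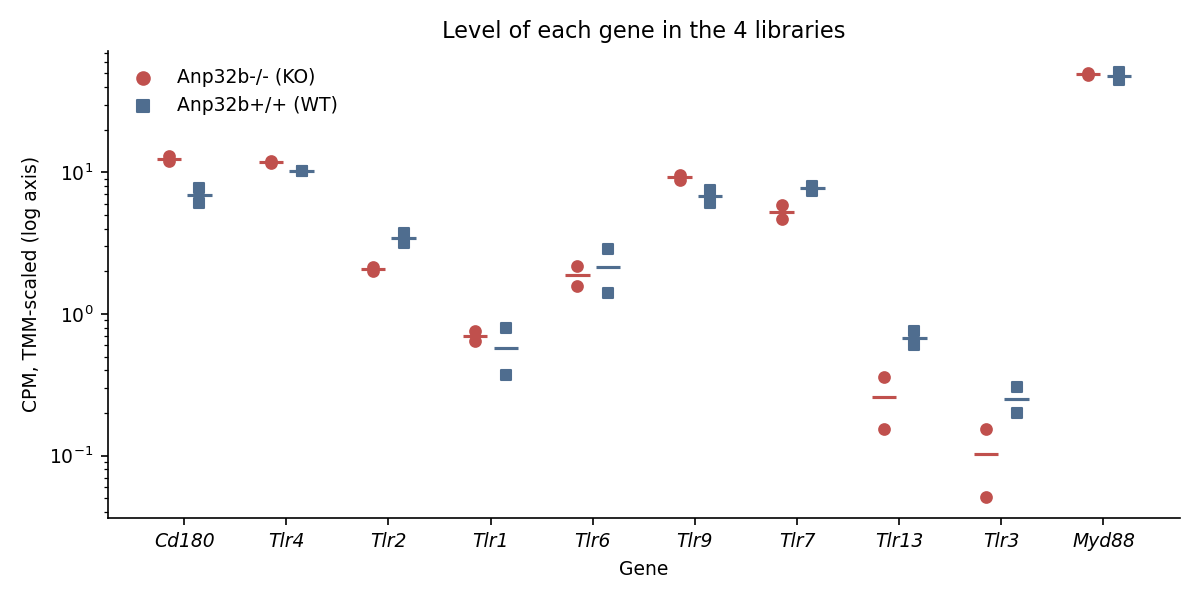
Level of each gene in CPM (log axis) in the KO libraries (circles) and the WT libraries (squares), with the mean of each pair as a line. Cd180 and Tlr9 lie higher and Tlr2 and Tlr7 lower in both KO libraries than in either WT library, while Myd88 overlaps between genotypes at 44.98 to 51.10 CPM.

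Cd180, on chromosome 13 at 102693547 to 102706631 (GRCm38.p6), was the member with the smallest p. It had 13.04 and 11.98 CPM in the KO libraries, against 7.73 and 6.10 CPM in the WT libraries. Both KO libraries lay above both WT libraries. In reads, that is 254 and 232 in KO and 154 and 121 in WT. Its RNA was 1.81-fold higher in KO (log2 fold change 0.85, SE 0.13, 95% interval 0.57 to 1.13, edgeR adjusted p = 0.000244). Cd180 remained called under all 11 alternatives tried, with log2 fold changes from 0.69 to 1.04. Its annotated exons overlap those of Mast4, a gene on the opposite strand. The shared stretch covers 3.03% of the 50-base windows of the Cd180 transcripts, and whether counting used strand is not stated. Mast4 itself was at 19.6 ± 0.025 CPM in KO and 15.9 ± 2.51 CPM in WT (SD, n = 2 each) and was not called (log2 fold change 0.30, edgeR adjusted p = 0.0513).

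Ly86, which encodes the CD180 partner MD-1, was not called. It was at 16.8 and 16.7 CPM in KO, against 17.4 and 20.8 CPM in WT (log2 fold change -0.18, 95% interval -0.40 to 0.03, edgeR adjusted p = 0.207). The KO values lay below both WT values. The ratio of Cd180 to Ly86 reads, in which gene length is the same for every library, was 0.774 and 0.716 in KO, against 0.445 and 0.294 in WT. Both KO ratios exceeded both WT ratios, which follows from Cd180 lying higher and Ly86 lower in both KO libraries. The ratio is thus not a further test, and 2 against 2 libraries cannot give an exact permutation p under 0.333.

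Tlr4, the lipopolysaccharide receptor gene and the closest relative of Cd180 in this set by structure, stayed below the threshold. It was at 12.01 and 11.57 CPM in KO, against 10.2 and 10.2 CPM in WT. Both KO values were above both WT values, by a margin larger than the gap within either pair. On the log2 scale the difference was 0.21 (95% interval -0.02 to 0.43, SE 0.11, edgeR adjusted p = 0.183), so the interval leaves room for a rise and for no change. Ly96, which encodes MD-2, was at 3.68 ± 0.12 CPM in KO and 3.40 ± 0.19 CPM in WT (SD, n = 2 each) and was not called (0.12, edgeR adjusted p = 0.709). Cd14, the co-receptor that hands lipopolysaccharide to TLR4 on myeloid cells, had 6 and 5 reads in KO and 7 and 16 reads in WT, and fell below the filter.

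Tlr2, which encodes the lipoprotein receptor common to both surface pairs (chromosome 3 at 83836272 to 83841824), fell. It had 2.16 and 2.01 CPM in KO, against 3.16 and 3.73 CPM in WT. No KO library reached the lower WT library. It decreased by 0.72 on the log2 scale (SE 0.22, 95% interval -1.20 to -0.25, edgeR adjusted p = 0.0280). The call rests on 81 reads in KO and 137 in WT. It was lost with DESeq2 (adjusted p = 0.331), with no filter (0.0783) and without WT replicate 2 (0.124), KO replicate 1 (0.112) or KO replicate 2 (0.194), over a range of 0.0178 to 0.331 for 10 alternatives, with the log2 fold change between -0.84 and -0.60.

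The Tlr2 partners Tlr1 and Tlr6 were too variable for a direction. Tlr1 had 0.646 and 0.752 CPM in KO, against 0.790 and 0.369 CPM in WT, and Tlr6 had 2.19 and 1.57 CPM in KO, against 2.87 and 1.41 CPM in WT. For both genes the KO values lay inside the range of the WT values. The log2 fold changes were 0.31 for Tlr1 (95% interval -0.66 to 1.29, edgeR adjusted p = 0.677) and -0.19 for Tlr6 (-0.88 to 0.51, edgeR adjusted p = 0.736), and both signs turned in single leave-outs. Tlr1 and Tlr6 are neighbouring genes on chromosome 5 with near-identical stretches. Of the 50-base windows of their transcripts, 14.8% for Tlr1 and 12.3% for Tlr6 also occur elsewhere in the transcriptome, chiefly in each other. Their deposited counts carry decimals (12.59 and 14.56 reads in KO and 15.74 and 7.31 in WT for Tlr1), so the split of reads between them is uncertain.

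Among the endosomal receptors, Tlr9, which encodes the sensor of unmethylated CpG DNA (chromosome 9 at 106222598 to 106226876), rose. It had 9.65 and 8.83 CPM in KO, against 7.48 and 6.10 CPM in WT. The lowest KO library was above the highest WT library. That is a log2 fold change of 0.44 (95% interval 0.15 to 0.74, SE 0.14, edgeR adjusted p = 0.0286), from 359 reads in KO and 270 in WT. The call was lost with DESeq2 (adjusted p = 0.304), with no filter (0.127) and without WT replicate 2 (0.161), KO replicate 1 (0.199) or KO replicate 2 (0.135), within a range of 0.00666 to 0.304 over 10 alternatives. The value stayed positive in each of them (0.30 to 0.60).

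Tlr7, which encodes the endosomal sensor of single-stranded RNA (X chromosome at 167303380 to 167330574), fell. It had 5.87 and 4.65 CPM in KO, against 7.41 and 8.01 CPM in WT. The genotypes did not overlap, and the KO pair was the more spread. Its deposited counts also carry decimals, with 114.37 and 89.98 reads in KO and 147.66 and 158.94 in WT. None of the 50-base windows of its transcripts was found in another gene, and the source of the decimals was not tested. It decreased by 0.56 on the log2 scale (SE 0.15, 95% interval -0.88 to -0.23, edgeR adjusted p = 0.0153). The call was lost with DESeq2 (adjusted p = 0.230), with no filter (0.0980) and without WT replicate 2 (0.0538) or KO replicate 2 (0.214), within a range of 0.00459 to 0.230 over 10 alternatives, with values from -0.73 to -0.40.

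The ratio of the DNA sensor gene to the RNA sensor gene can be compared between libraries, since gene length is the same in each. The ratio of Tlr9 to Tlr7 CPM was 1.64 and 1.90 in KO, against 1.01 and 0.761 in WT. Both KO ratios lay above both WT ratios. The non-overlapping values of Tlr9 and Tlr7 given above already fix this, so the ratio adds no further support. Unc93b1, whose product carries both receptors to the endosome, was at 235 and 238 CPM in KO, against 258 and 252 CPM in WT (log2 fold change -0.11, 95% interval -0.21 to 0.0018, edgeR adjusted p = 0.150).

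Tlr13, a sensor of bacterial ribosomal RNA in mice, and Tlr3, the sensor of viral duplex RNA, were close to the detection limit. Tlr13 had 3 and 7 reads in KO, against 15 and 12 reads in WT, or 0.154 and 0.361 CPM against 0.753 and 0.605 CPM. The KO reads were below the WT reads in each library. The edgeR log2 fold change was -1.38 (SE 0.53, 95% interval -2.52 to -0.24), with an adjusted p of 0.0767 that misses the threshold. Only the WT libraries reached the minimum count of 10 of the filter. Tlr13 was thus tested only because its WT values were high, and its fold change and interval are a description. The ratio of summed reads, KO over WT, was 0.379 (95% counting interval 0.164 to 0.808), an exact interval for counting error only. Tlr3 had 1 and 3 reads in KO, against 4 and 6 reads in WT, a ratio of 0.409 (0.0937 to 1.42), and did not pass the filter.

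**Figure D2:**
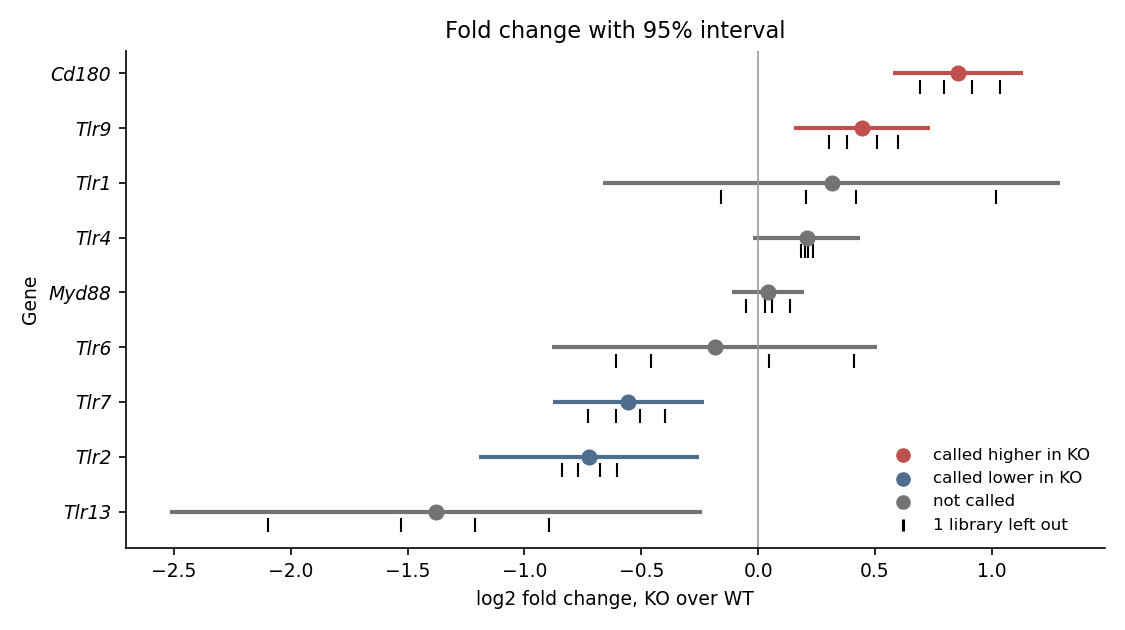
log2 fold change (KO over WT) of the 9 tested members, with the 95% interval of the edgeR fit as a bar and the values after leaving out 1 library at a time as ticks. The interval of Cd180 (0.57 to 1.13) lies farthest above 0, and those of Tlr1, Tlr6, Tlr4 and Myd88 span 0. The leave-out ticks of Cd180, Tlr9, Tlr7 and Tlr2 stay on 1 side of 0, as do those of Tlr4 and Tlr13, which were not called.

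Myd88, the adaptor gene, had the most reads of the members and was not called. It had 50.05 and 48.90 CPM in KO, against 51.10 and 44.98 CPM in WT. The KO values lay between the WT values. The fitted log2 fold change of Myd88 was 0.04 (95% interval -0.11 to 0.20, SE 0.07, edgeR adjusted p = 0.726), and its sign turned without WT replicate 2 (-0.050). Of the windows of its transcripts, 9.82% are shared with Acaa1a on the opposite strand, which was at 31.8 ± 0.64 CPM in KO and 34.0 ± 0.82 CPM in WT (SD, n = 2 each; log2 fold change -0.094, edgeR adjusted p = 0.379).

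Per kilobase of the longest protein-coding GENCODE transcript, levels of different genes can be ranked. On this scale Myd88 led with 25.2 CPM per kb in KO and 24.5 in WT. In the KO libraries Cd180 (4.92 and 4.52 CPM per kb) was followed by Tlr4 (2.95 and 2.84), Tlr9 (2.77 and 2.54) and Tlr7 (1.51 and 1.19), and no neighbours in this run overlapped. In the WT libraries Cd180 (2.92 and 2.30 CPM per kb) overlapped Tlr4 (2.51 and 2.50), and Tlr7 (1.90 and 2.06) overlapped Tlr9 (2.15 and 1.75). Below them in both genotypes came Tlr2 with 0.692 CPM per kb in KO and 1.14 in WT, Tlr6 with 0.512 and 0.583, Tlr1 with 0.231 and 0.192, Tlr13 with 0.0635 and 0.167, and Tlr3 with 0.0234 and 0.0571. The order of Cd180, Tlr4 and Tlr9 rests on the length chosen. Together the coding transcripts of Cd180 hold 4551 different 50-base windows, against 2650 bases in the longest. Those of Tlr4 hold 5417, against 4077 bases, while Tlr9 has 1 coding transcript of 3478 bases. Other lengths were not tried. The summed level of the 8 receptor genes overlapped between genotypes, with 32.7 and 29.9 CPM in KO against 32.9 and 30.7 CPM in WT. The other Toll-like receptor genes Tlr5, Tlr8, Tlr11 and Tlr12 had at most 11 reads in a library and did not pass the filter, and Tlr8, with the most reads of them, had 5 reads in each KO library against 11 and 4 in WT.

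Many markers of neutrophils, monocytes and dendritic cells were lower in the same KO libraries, and their part in the falls of Tlr2 and Tlr7 and in the low values of Tlr13 was not tested. Of 20 neutrophil markers, 18 were called lower, and the list summed to 146 and 145 CPM in KO, against 694 and 704 CPM in WT. Of 19 tested monocyte and macrophage markers, 9 were called lower, with sums of 83.3 and 80.4 CPM in KO and 162 and 154 CPM in WT. Among them Lyz2 was at 11.6 ± 0.093 CPM in KO and 55.3 ± 0.69 CPM in WT, while Cd68 was at 14.9 ± 0.81 and 14.4 ± 1.38 CPM (SD, n = 2 each). Of 9 tested plasmacytoid dendritic cell markers, which belong to a cell rich in TLR7 and TLR9 protein, 5 were called lower, with sums of 111 and 116 CPM in KO and 137 and 138 CPM in WT. DESeq2 called 2 of them. Most of the sum was Tcf4, Pld4 and Bst2, at means of 38.7, 38.9 and 28.1 CPM in KO and 51.1, 37.5 and 31.8 CPM in WT. Of these, Tcf4 was called lower, and Pld4 and Bst2 were not called.

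The sums of conventional dendritic cell markers (2 of 6 called lower) were 23.3 and 23.9 CPM in KO and 33.2 and 31.7 CPM in WT. Natural killer markers (2 of 3 called lower) summed to 1.39 and 1.96 CPM in KO and 5.56 and 6.95 CPM in WT. The called ones, Klrb1c and Nkg7, passed the filter only through the WT libraries. T cell markers (1 of 6 called higher, 2 lower) summed to 119 and 127 CPM in KO and 113 and 120 CPM in WT. Most of that sum was Cd2, at 90.04 and 95.73 CPM in KO and 82.3 and 84.7 CPM in WT, which was not called (edgeR adjusted p = 0.0665). Cd3e, Cd3d and Cd3g, on the same list, had at most 7 reads in a library and fell below the filter. The sum therefore says little about T cells. Zap70 was called higher, at 13.1 and 13.5 CPM in KO against 8.33 and 10.1 CPM in WT (log2 fold change 0.53, edgeR adjusted p = 0.00437). Lck was called lower (-0.39, edgeR adjusted p = 0.0137). Cd4, the helper T cell co-receptor gene, was called lower, at 1.13 and 1.03 CPM in KO against 3.76 and 2.87 CPM in WT (log2 fold change -1.61, edgeR adjusted p = 0.000465). No marker was at 0 in all 4 libraries, and the only ones without reads in both KO libraries were Klk1 and Cd3e. Of 9 erythroid and 2 megakaryocyte markers tested, edgeR and DESeq2 each called 0, and 2 and 0 of them had an unadjusted edgeR p under 0.05.

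The B lineage markers moved in both directions beside the rises of Cd180 and Tlr9. Ms4a1, which encodes CD20, a surface protein of mature B cells, was at 107 and 97.8 CPM in KO, against 27.0 and 27.6 CPM in WT (log2 fold change 1.91, SE 0.07, edgeR adjusted p = 1.09e-10). Cd22, an inhibitory co-receptor gene of B cells, was at 107 and 104 CPM in KO, against 53.1 and 52.0 CPM in WT (1.00, edgeR adjusted p = 1.57e-08), and Spib, the gene of a factor related to PU.1, also rose (0.31, edgeR adjusted p = 0.000402). Ebf1, an early B cell factor gene, fell to 220 and 215 CPM in KO, against 324 and 299 CPM in WT (-0.52, edgeR adjusted p = 7.86e-06). The surrogate light chain genes Vpreb1 (-0.37, edgeR adjusted p = 0.000116) and Igll1 (-0.37, edgeR adjusted p = 0.000176), active in early B cells, fell too. The other B lineage markers called lower were Vpreb2 (-0.46), Bank1 (-0.35), Blnk (-0.28) and Cd24a (-0.17). Their edgeR adjusted p ran from 1.10e-05 for Vpreb2 to 0.0221 for Cd24a. The calls of Spib and Igll1 were lost without KO replicate 2. The part of these markers in the values of Cd180, Tlr9, Tlr7 and Tlr2 was not tested.

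**Figure D3:**
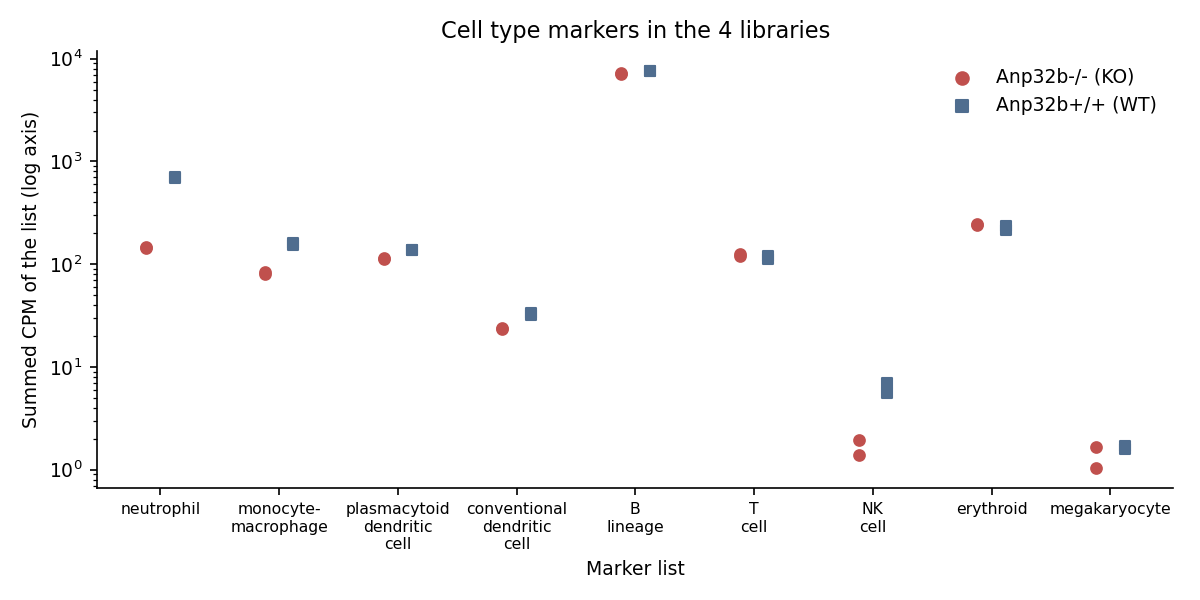
Summed CPM (log axis) of each marker list in the KO libraries (circles) and the WT libraries (squares). Neutrophil markers show the widest gap, 145 to 146 CPM in KO against 694 to 704 CPM in WT, and B lineage markers sit at 7124 to 7662 CPM in all 4 libraries.

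Tlr7 and Tlr13 lie on the X chromosome, and the libraries also differed in Y-linked RNA. The 5 tested Y-linked genes summed to 52.0 and 51.1 CPM in KO and to 162 and 178 CPM in WT, with 4 called lower and 1 higher (median log2 fold change -2.04). Of 392 tested genes on the X chromosome, 39 were called higher and 53 lower, with a median log2 fold change of -0.0078. The part of the donors' or recipients' sex in the values of Tlr7 and Tlr13 was not tested.

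Downstream and around the receptors, most of the signalling genes were not called, and several feedback genes fell in KO. Over the 8 pathway lists, which leave out the 10 members, 13 of 117 tested genes were called higher and 26 lower, 33.3% in all, with a median log2 fold change of -0.0065. The background over all genes was 23.6%. The lists were drawn up from textbook knowledge, with earlier results of these data known, so the counts are a description.

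Among co-receptors, chaperones and trafficking genes, 4 of 26 were called higher and 5 lower (median 0.01). Cnpy3, which encodes a chaperone that folds most Toll-like receptors, was at 88.0 and 86.6 CPM in KO, against 71.4 and 72.6 CPM in WT (log2 fold change 0.28, SE 0.06, edgeR adjusted p = 0.00207). Slc15a4, which encodes an endolysosomal transporter needed for TLR7 and TLR9 responses, was at 37.2 and 38.1 CPM in KO, against 31.2 and 31.4 CPM in WT (0.27, edgeR adjusted p = 0.0122). Both calls were lost without KO replicate 1 and without KO replicate 2, and that of Slc15a4 also with DESeq2. Pld3, which encodes an endolysosomal nuclease that degrades TLR9 ligands, was lower at 14.1 and 12.8 CPM in KO, against 21.3 and 20.6 CPM in WT (-0.64, SE 0.09, edgeR adjusted p = 0.000139). Lrrc32, whose product anchors latent TGF-beta and which stands on the list as a leucine-rich repeat relative, fell to 2.06 ± 0.50 CPM in KO, against 7.85 ± 0.97 CPM in WT (SD, n = 2 each; -1.93, edgeR adjusted p = 5.18e-06). Ctsb (-0.24, edgeR adjusted p = 0.00285), a lysosomal protease gene, and Syk (-0.21, edgeR adjusted p = 0.0110), a kinase gene of B cell receptor signalling, fell slightly. Their calls were lost without either KO replicate, and that of Syk also with no filter.

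Among the 5 TIR adaptor genes, 1 was called lower (median 0.14). Pik3ap1, which links Toll-like receptors to PI3-kinase, was at 110 and 112 CPM in KO, against 143 and 125 CPM in WT (log2 fold change -0.28, SE 0.06, edgeR adjusted p = 0.00596), a call lost with no filter and without either KO replicate. Tirap, which brings MYD88 to TLR2 and TLR4, was at 13.2 ± 0.19 CPM in KO and 10.7 ± 2.15 CPM in WT (SD, n = 2 each) and was not called (0.31, edgeR adjusted p = 0.0944).

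In the kinase and ubiquitin ligase cascade, 2 of 30 genes were called higher, 2 lower and 26 were not called. Irak1, the kinase gene directly below MYD88 and IRAK4, rose to 114 and 110 CPM in KO, against 89.0 and 88.2 CPM in WT (log2 fold change 0.34, SE 0.05, edgeR adjusted p = 0.000344). Traf3, a ligase gene that restrains alternative NF-kB signalling, rose (0.29, SE 0.06, edgeR adjusted p = 0.00344), a call lost with no filter and without KO replicate 1. Irak3, which encodes an inhibitory IRAK, fell (-0.40, SE 0.10, edgeR adjusted p = 0.0102), and Map3k8, the TPL2 kinase gene, fell to 3.85 and 2.74 CPM in KO, against 7.63 and 6.25 CPM in WT (-1.07, SE 0.19, edgeR adjusted p = 0.000809). Irak3 lost its call with DESeq2, with no filter and without either KO replicate, and Map3k8 with no filter and without KO replicate 2.

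Of 14 end-point transcription factors, 1 was called higher and 4 lower (median 0.0073). Irf7, which drives type I interferon below TLR7 and TLR9, fell to 1.49 and 1.29 CPM in KO, against 5.02 and 4.29 CPM in WT (log2 fold change -1.74, SE 0.22, edgeR adjusted p = 5.31e-05). Nfkb2 (-0.57, SE 0.08, edgeR adjusted p = 0.000174) and Relb (-0.49, SE 0.12, edgeR adjusted p = 0.00809), which encode the subunits of alternative NF-kB, fell. Atf3, a stress-induced repressor gene, fell (-0.25, edgeR adjusted p = 0.0162). Fos, an AP-1 subunit gene, rose to 271 and 278 CPM in KO, against 197 and 191 CPM in WT (0.50, SE 0.05, edgeR adjusted p = 5.47e-06). The calls of Relb and Atf3 were lost with DESeq2, with no filter and without either KO replicate.

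Of 22 negative regulators, 3 were called higher and 7 lower (median -0.06). Tnfaip3, the gene of the deubiquitinase A20, fell to 21.2 and 20.6 CPM in KO, against 40.7 and 36.4 CPM in WT (log2 fold change -0.88, SE 0.08, edgeR adjusted p = 1.64e-06). Trafd1, a feedback gene of Toll-like receptor signalling, fell to 14.4 and 13.8 CPM in KO, against 27.1 and 26.2 CPM in WT (-0.92, edgeR adjusted p = 1.84e-06). The IkB family genes Nfkbiz (-0.75, edgeR adjusted p = 1.58e-05) and Nfkbia (-0.37, edgeR adjusted p = 0.00131) fell as well, as did Lgals9, a galectin gene (-0.37, edgeR adjusted p = 0.000161), whose call was lost without KO replicate 2. Ptpn6, which encodes the phosphatase SHP-1, had the largest rise among the called genes of this list (log2 fold change 0.67), at 145 and 144 CPM in KO, against 88.9 and 92.1 CPM in WT. The members of this list that fell include several that NF-kB is known to induce. Nfkbid, an IkB family gene that stands on the list of induced genes, was called higher (0.29, edgeR adjusted p = 0.00410). The part of NF-kB in these values was not tested.

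Of 16 tested genes that Toll-like receptor ligands induce in B cells, 3 were called higher and 5 lower (median -0.40). Cd69, an early activation antigen gene, fell to 136 and 135 CPM in KO, against 201 and 218 CPM in WT (log2 fold change -0.63, SE 0.06, edgeR adjusted p = 1.32e-06). Tnf fell to 2.87 and 2.69 CPM in KO, against 5.77 and 5.65 CPM in WT (-1.04, edgeR adjusted p = 0.000543), and Slfn2 (-0.80) and Myc (-1.27) fell too. Batf, an AP-1 family factor gene of activated lymphocytes, rose to 7.29 and 8.52 CPM in KO, against 3.82 and 3.98 CPM in WT (1.02, SE 0.15, edgeR adjusted p = 0.000231), and Gadd45b rose (0.71, edgeR adjusted p = 2.93e-05). Induced genes thus moved in both directions. Of 4 tested genes of the interleukin-1 receptor family, only some of whose members signal through MYD88, 2 were called lower. Il18rap was at 0.975 and 0.981 CPM in KO against 2.51 and 2.87 CPM in WT. Il1rl2 was at 0.0513 and 0.258 CPM in KO against 1.15 and 1.31 CPM in WT. The Il1rl2 call was lost with no filter, and its KO values are near the counting limit. Il1rl2 passed the filter only through its WT libraries, where it was higher. Neutrophil and natural killer markers were lower in the same libraries, and their part in these counts was not tested.

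The genes with the nearest pattern to Cd180, Tlr7 and Tlr2, the members with the smallest p, were found by the Euclidean distance of log2 CPM, centred per gene, over the 4 libraries. Among 9435 tested genes averaging at least 5 CPM, Pnp2 (distance 0.0880) and Cercam (0.119) were among the nearest to Cd180. Cercam was at 16.2 CPM in KO and 8.86 CPM in WT on average. Nearest to Tlr7 were Gimap7 (0.0455), Gmfg-ps (0.0577) and Cyp3a13 (0.0689), and nearest to Tlr2, among 9436 genes, were Ro60 (0.0684), Crip2 (0.0714) and Acvr1 (0.0803). Ro60, which encodes an RNA-binding autoantigen, was at 7.61 CPM in KO and 12.1 CPM in WT. With 4 points a gene, nearness says only that these values ran alike.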

How the data were processed

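Per the file headers and labels, the authors deposited 1 table of estimated read counts (expected counts) per gene symbol for each of 4 libraries. About 64.5% to 65.6% of the values were whole numbers. HISAT2 2.0.4 and DESeq2 1.4.5 are listed with GRCm38 as the build in the submitters' processing notes. How reads were counted (tool, annotation, strand, filters) is not stated in the sources used here. Counts were rounded and tested with edgeR 4.0.16 (R 4.3.3, quasi-likelihood, TMM, filterByExpr with a minimum count of 10, no covariate), with Benjamini-Hochberg adjustment over 12123 tested genes and a threshold of 0.05. 4490 symbols fell below the filter. Intervals are 95% intervals of that fit, and exact binomial intervals for ratios of reads. The procedure was tested on simulated counts.

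Transcript windows came from GENCODE M21 and promoters and coordinates from RefSeq GRCm38.p6, the build of the files. The members, lists and tests were chosen with earlier results of these data known. Named genes are all members, Anp32b, up to 6 called genes per pathway list by smallest p (else its most abundant gene), abundant markers, and the 3 nearest patterns of the 3 members with the smallest p. Some genes that this rule picks are not reported here. Ly86, Ly96, Cd14, Unc93b1, Tirap, Nfkbid, Mast4 and Acaa1a were named for their role after values were seen. So were the markers Klk1, Cd3e, Cd3d, Cd3g, Cd2, Cd4, Ms4a1, Cd22, Spib, Ebf1, Vpreb1, Vpreb2, Igll1, Bank1 and Blnk. Alternatives were RLE and upper-quartile normalization, no filter, a filter of 10 CPM in 2 libraries, DESeq2 1.42.0, limma-voom (limma 3.58.1), the replicate number as a block, and omission of each library, where the single library left is taken to have the spread of the other pair.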

Additional observations from a re-analysis of the deposited data

How the results depend on the processing

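Of the tested members, Cd180 kept its call and direction under all 11 alternatives, and the calls of Tlr2, Tlr7 and Tlr9 kept their direction but not always their side of the threshold, as given above. The calls of the members, 2 higher and 2 lower, became 1 and 0 with DESeq2, with no filter and with a filter of 10 CPM in 2 libraries, which left 3 members to test. At an unadjusted p under 0.05, DESeq2 gave 1 member higher and 1 lower, no filter 3 and 3, and the 10 CPM filter 1 and 0. Leaving out 1 library gave 1 to 2 members higher and 0 to 2 lower (2 to 3 lower at an unadjusted p under 0.05), and limma-voom gave 2 and 2. Over all genes the calls, 1323 higher and 1533 lower, became 547 and 744 with no filter and 680 and 714 with DESeq2, and ranged over the leave-outs from 372 to 1676 higher and from 579 to 1712 lower. The pathway calls, 13 higher and 26 lower, became 7 and 15 with no filter, with 8 higher under DESeq2, and ranged from 5 to 16 higher and from 14 to 29 lower over the leave-outs. Leaving out a KO library takes the spread from the WT pair, which varied more. Signs turned only for members that were not called: over the leave-outs Tlr1 ran from -0.16 (without WT replicate 2) to 1.02, Tlr6 from -0.61 to 0.41 (without WT replicate 1, and 0.047 without KO replicate 2), and Myd88 from -0.050 (without WT replicate 2) to 0.14. The cause was not tested for any of these. Replicate numbers are shared between genotypes. The deviations of same-numbered libraries correlated at 0.035 across genes, a value that cannot tell whether the numbers mark pairs. With the replicate number as a block, 1644 genes were called higher and 1779 lower, 2 and 2 members, and 17 and 28 pathway genes. Tlr13, Tlr3, Tlr1 and Tlr6 had at most 57.3 reads in a library, and Tlr2, which was called, had 39 to 74. The part of depth in these values was not tested.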
